A study of Lathyrus oleraceus with 4 samples.

Results

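A pea shoot apical meristem (SAM) oligonucleotide array carries 2234 probes. Annotations were searched only for the 359 transcripts that published lists give as changed on it. Of these, 2 are annotated as Argonaute, the clones S0354 and N1195. They were chosen because a published list of transcripts with higher expression in the SAM, obtained from these same arrays, annotates both as an Argonaute protein with its best match in red clover, Trifolium pratense. The chosen values are therefore the SAM/NM ratios themselves, where NM is non-meristem tissue, and these ratios are given below as a description, with no test. The list names the transcripts by GenBank accession (EX570261 for S0354 and EX570262 for N1195), whereas the array tables name clones. The accessions and clones were paired through the listed ratio and adjusted p-value, which left a summed relative difference of 1.72e-06 for S0354 and 6.06e-07 for N1195, against 0.115 and 0.116 for the next best probe. The annotation of both clones rests on that pairing. Probe sequences and genome positions were not analysed here.

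Argonaute proteins bind small RNAs, such as microRNAs and small interfering RNAs, and are the core of the RNA-induced silencing complex. The small RNA guides the complex to transcripts with a matching sequence, which are cut or kept from translation, and some plant Argonautes instead guide DNA methylation. In Arabidopsis, ARGONAUTE1 and the related ARGONAUTE10 (PINHEAD/ZWILLE) are required for a functional shoot meristem, and ARGONAUTE4 acts in RNA-directed DNA methylation. Which member of the family either pea clone encodes is not stated by the annotation, and whether the clones stem from the same gene was not tested.

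The comparison asked which transcripts differ in abundance between the SAM and a set of non-meristem tissues. SAM RNA came from meristems dissected from 10-day-old greenhouse-grown garden pea (cultivar Torsdag) without leaf primordia, about 80 of them in an extraction. NM RNA came from primary stem, mature leaf and primary root of plants of the same cultivar. Both were hybridised together, in different dyes, on each of 4 sectors of 1 CombiMatrix chip, with an independent tissue collection for each sector. On sectors 2 and 4 the SAM sample was labelled with Cy5, on sectors 1 and 3 with Cy3. Each sample pools many plants and all cells of a tissue, so more cells with an Argonaute transcript cannot be told apart from more transcript per cell.

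Directions rest on reading the first channel of the tables as Cy5, since the tables number the channels without naming the dyes. With this reading all 129 GenBank-named probes of the published lists fall on the side where they are listed, and with the reverse reading 0 of 129 do. The lists were made from these same arrays. The counts therefore show which channel order the lists used and are no independent evidence of direction. The sample labels name Cy3 first, and with that order every direction below would be turned round. By array and channel, the median probe intensity ranged from 170.2 to 792 and the median of the 6 blank spots from 43.8 to 157. The normalised log2 ratios correlated at 0.869 to 0.886 between arrays of the same dye orientation and at 0.681 to 0.814 between arrays of opposite orientation (Pearson, over probes, and probes are no independent replicates). The 4 GenBank-named probes for proliferating cell nuclear antigen, cyclin D and MCM7, which mark dividing cells, had a median of 1.45 in log2 SAM/NM ratio and all 4 were called higher, as 9.76% of all probes were (adjusted p under 0.05 in limma and ratio above 1.3). The 4 for chlorophyll-binding and photosystem II proteins and RuBisCO activase, which mark green tissue, were all called lower, as 7.34% of all probes were (ratio below 0.7), with a median of -2.54. Both sets were taken from the published lists, so these directions are not independent evidence. With 4 arrays, the precision of each value is limited by their number.

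S0354 and N1195 were brighter than the blanks in both tissues. The S0354 spot gave intensities of 1278 in SAM and 378 in NM on sector 1, 440 in SAM and 469 in NM on sector 2, 2757 in SAM and 612 in NM on sector 3, and 3703 in SAM and 824 in NM on sector 4. The N1195 spot gave 848 in SAM and 275 in NM on sector 1, 274 in SAM and 369 in NM on sector 2, 1296 in SAM and 284 in NM on sector 3, and 2038 in SAM and 497 in NM on sector 4. For both clones the SAM signal was the brighter on sectors 1, 3 and 4 and the dimmer on sector 2. The raw SAM and NM intensities therefore overlapped across arrays. The reading nearest to the blanks was that of N1195 in the NM of sector 3, at 2.83 times the brightest blank of that channel. In NM, N1195 was dimmer than the median probe on sector 2 (369 against 397) and sector 3 (284 against 362).

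**Figure D1:**
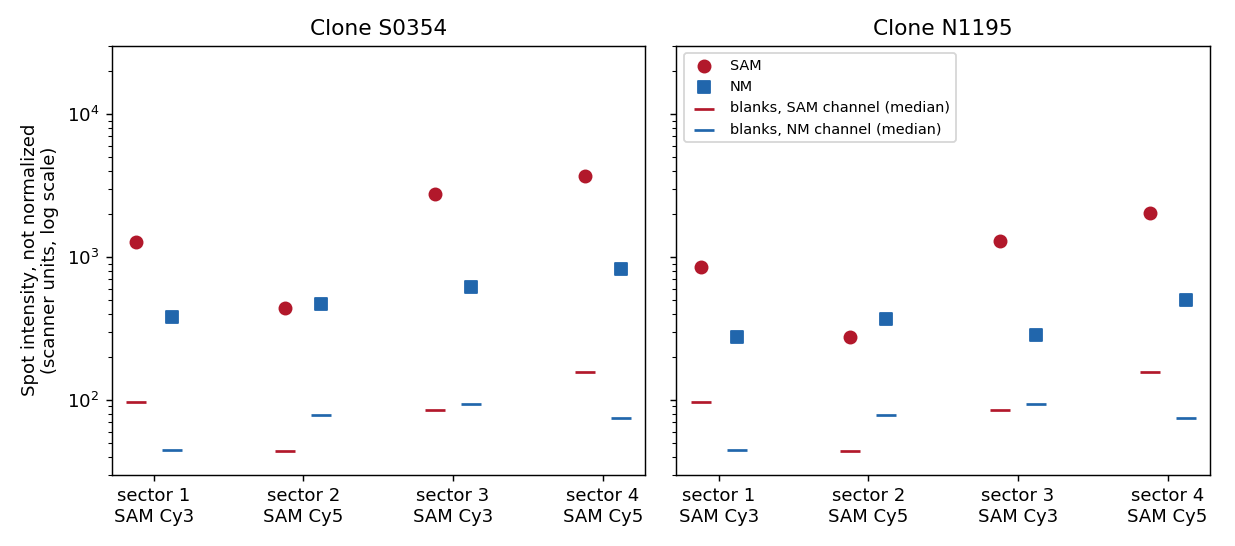
Intensity of the S0354 spot (left) and the N1195 spot (right) in the SAM (circles) and NM (squares) channels of each sector, in scanner units on a log scale and not normalised, with dashes at the median of the 6 blank spots. The SAM signal lies above the NM signal on sectors 1, 3 and 4 and below it on sector 2, where N1195 gave 274 in SAM and 369 in NM.

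Sector 2 stood apart from the other arrays for the whole set of probes. Before normalisation its median log2 SAM/NM ratio over all probes was -1.18, while sectors 1, 3 and 4 had medians of 0.79, 0.64 and 0.86. The unnormalised log2 ratio of S0354 on sector 2 was -0.09 and that of N1195 was -0.43, both well above that array's median. Normalisation by a robust spline, a smooth curve of the ratio against mean signal that is subtracted on each array, shifted S0354 by 0.95 on sector 2 and by -0.33, -0.64 and -1.21 on sectors 1, 3 and 4. It shifted N1195 by 1.14 on sector 2 and by -0.52, -0.72 and -0.96 on sectors 1, 3 and 4. The shifts were as large as the ratios that remained on some arrays, and the size of each ratio depends on them.

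After normalisation both Argonaute clones had a higher signal in the SAM on each of the 4 arrays, as 17.9% of all probes did. S0354 had log2 SAM/NM ratios of 1.43, 0.86, 1.53 and 0.95 on sectors 1 to 4, with a mean of 1.19 ± 0.34 (SD, n = 4 arrays), a ratio of 2.29. N1195 had 1.10, 0.71, 1.47 and 1.08 on the same sectors, with a mean of 1.09 ± 0.31 (SD, n = 4 arrays), a ratio of 2.13. Sector 3 was the highest and sector 2 the lowest array for both clones. The standard error of limma was 0.13 for each.

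**Figure D2:**
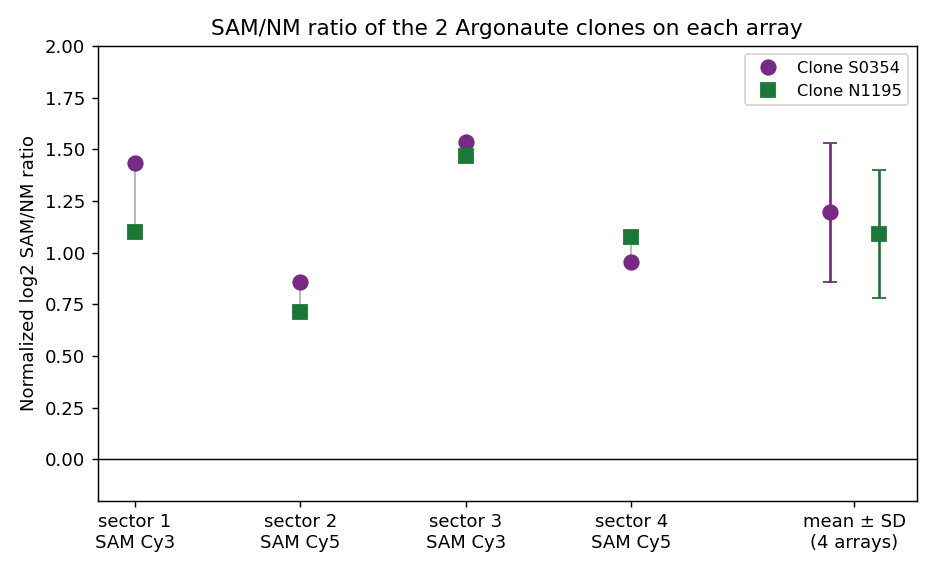
Normalised log2 SAM/NM ratio of S0354 (circles) and N1195 (squares) on each sector, a grey line joining the clones on 1 array, with the mean and SD over the 4 arrays at the right. All 8 values lie above 0, from 0.71 to 1.53, and S0354 is above N1195 on sectors 1, 2 and 3.

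Both clones met the limits used for a call, an adjusted p under 0.05 in limma and a ratio above 1.3, as 9.76% of all probes did (218 of 2234). Since they were taken from a list made with such limits, this count holds no information on the 2 clones. The called probe nearest to the limit on the ratio had a ratio of 1.304, and the nearest below it, with an adjusted p under 0.05, had 1.299. Both clones lay far from that limit. By mean log2 ratio S0354 ranked 53rd and N1195 ranked 60th of all probes. On single arrays the rank of S0354 among all probes ran from 27 on sector 1 to 110 on sector 4, and that of N1195 from 61 on sectors 1 and 3 to 101 on sector 2.

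Brought to a common distribution of mean signal, the tissues no longer overlapped for either clone. The normalised log2 signal of S0354 lay between 9.91 and 10.77 in SAM and between 9.05 and 9.55 in NM. That of N1195 lay between 9.30 and 9.85 in SAM and between 8.26 and 8.77 in NM. The lowest SAM value came from sector 2 for both. Signals with no overlap and with the SAM higher were found for 9.94% of all probes, and this count again uses the contrast that chose the clones.

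**Figure D3:**
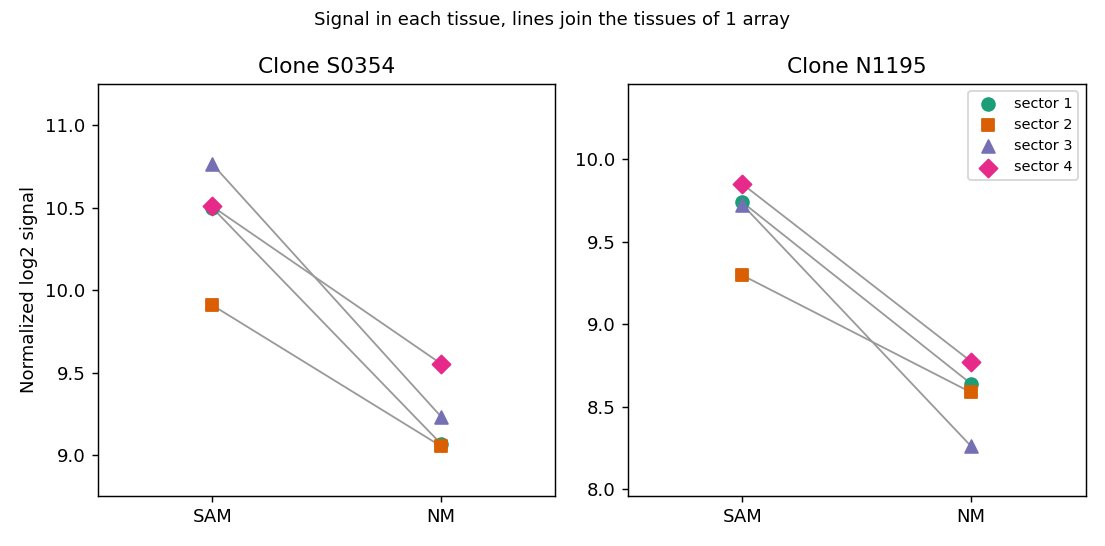
Normalised log2 signal of S0354 (left) and N1195 (right) in SAM and NM, each line joining both tissues of 1 array. Every line falls towards the NM, and the lowest SAM value, 9.91 for S0354 and 9.30 for N1195, is that of sector 2; the vertical axes differ between the panels.

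The 2 clones were then compared array by array. S0354 minus N1195, as a difference of log2 SAM/NM ratios, was 0.33, 0.14, 0.07 and -0.12 on sectors 1 to 4. The mean difference was 0.10 with an SD of 0.19 (n = 4 arrays), so that it was smaller than the spread between arrays and changed sign on sector 4. Without sector 1 the mean difference was 0.03, and without sector 4 it was 0.18. No test was made of this difference, as both ratios come from the contrast that chose the clones. Before normalisation the difference was 0.13, 0.34, -0.02 and 0.13 on sectors 1 to 4, so that the array on which N1195 had the larger ratio was sector 3 and not sector 4.

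The root mean square difference between the clones over the 4 arrays was 0.19 on the log2 scale. For comparison, 27 other pairs of listed probes that share a product name, under 18 names, had a median of 0.46 and a range from 0.08 to 1.99. Of these 27 pairs, 2 were closer than the Argonaute pair. One is annotated as apyrase, an enzyme that hydrolyses nucleoside triphosphates (AB027616 and AB038669), and the other as proliferating cell nuclear antigen (AB008186 and Y16796, 0.18). Another probe of the latter name, S0388, was far from both AB008186 (1.09) and Y16796 (1.18), so a shared name went with near and far pairs alike. The widest pair was of plasma membrane intrinsic proteins, which are water channels (AJ243307 and AJ548795). Annotations were matched on the product name alone, without organism, GenBank wording, names in brackets or general words such as protein. Some names are those of a family or group, such as plasma membrane intrinsic, so a pair can hold different products. Histone H2A and apyrase each occur under more than a single name. Pairs of probes share arrays, and some share a probe, so the counts are a description. Of all 23653 pairs among the 218 probes called higher, 6.25% were closer than the Argonaute pair. The nearness of the clones is thus shared with many pairs of unlike annotation.

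**Figure D4:**
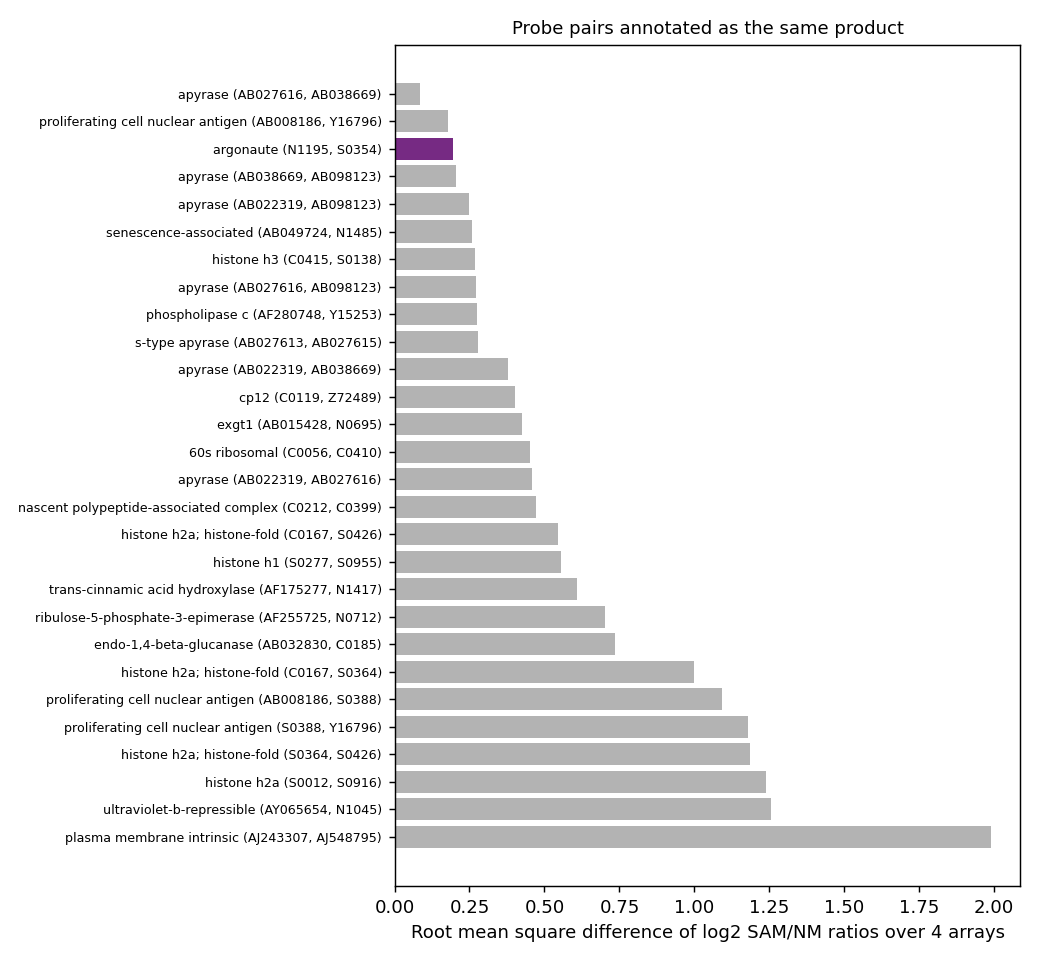
Root mean square difference of the log2 SAM/NM ratios over the 4 arrays for each pair of listed probes that share a product name, with the Argonaute pair in purple and the other 27 pairs in grey. The Argonaute pair, at 0.19, follows an apyrase pair at 0.08 and a proliferating cell nuclear antigen pair at 0.18, and the widest pair is at 1.99.

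The probes nearest to each clone over the 4 arrays were sought by the same measure among the other 2233. For S0354 the nearest were EX569708, a ubiquitin extension protein (UBQ2; 0.10), EX570351, with no match (0.14), EX570565, ribosomal protein L23 (0.17), and EX568807, fibrillarin, a protein of ribosomal RNA processing (0.19). N1195 came next. For N1195 the nearest were EX570548, an endo-1,4-beta-glucanase (0.10), EX568991, DNA polymerase delta (0.11), EX569708 (0.12), EX568701, histone H1 (0.13), and EX570565 (0.14), with S0354 in position 14. The ubiquitin extension transcript, which had 1.25, 0.88, 1.53 and 1.05 on sectors 1 to 4, and the L23 transcript stood near both clones. A like ratio on 4 arrays is a description of these arrays.

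The clones came from different cDNA libraries, all made from SAM RNA. S0354 was from the subtracted library, in which NM cDNA served as the driver that removes shared sequences from the SAM tester. N1195 was from the normalized library, a type of library in which abundant transcripts are evened out. In the subtracted library 21.6% of the 296 probes were called higher, and S0354 had the 20th highest mean log2 ratio among them. In the normalized library 4.75% of the 1095 probes were called higher, and N1195 had the 5th highest mean log2 ratio. For the other sources the share called higher was 25.2% of 290 probes from the standard library and 5.24% of the 553 remaining probes. These 553, with no library clone name, are called GenBank-derived below, and any control probes among them were not separated.

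The dye of the SAM sample was balanced over the arrays and was not used in choosing the clones, so its effect could be tested. The mean log2 SAM/NM ratio of S0354 was 0.91 on the arrays with SAM in Cy5 and 1.48 on those with SAM in Cy3. N1195 had 0.89 with SAM in Cy5 and 1.28 with SAM in Cy3. Both clones thus had lower ratios with SAM in Cy5. For N1195 the arrays with SAM in Cy5 had 0.71 (sector 2) and 1.08 (sector 4). Those with SAM in Cy3 had 1.10 (sector 1) and 1.47 (sector 3). Fitted beside the tissue, the dye effect (Cy5 over Cy3) was -0.29 for S0354 (standard error 0.07, unadjusted p = 0.00547, adjusted p = 0.106 from limma) and -0.20 for N1195 (standard error 0.10, adjusted p = 0.295 from limma). Neither passed an adjusted p of 0.05, as 0.224% of all probes did (5 of 2234). An unadjusted p under 0.05 for dye was found for 517 probes (23.1%), S0354 among them. With 4 arrays, an adjusted p above the limit does not show that a dye effect was absent. A negative dye effect was found for 51.7% of all probes and for 64.7% of the 218 called higher, so its sign is common among probes. In size, the dye effect of S0354 exceeded that of 89.5% of all probes, and that of N1195 exceeded 75.0%. With median centring in place of the spline it was -0.03 for S0354 and -0.12 for N1195. Within either orientation both clones kept a higher signal in the SAM.

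The spots lay apart on the chip, S0354 in column 7 and row 37 and N1195 in column 22 and row 15. Over the 24 spots within 2 rows and 2 columns, the median normalised log2 ratio around S0354 was -0.12, 0.14, -0.10 and 0.07 on sectors 1 to 4. Around N1195 it was -0.06, 0.06, -0.15 and 0.02. The surroundings of both spots were thus near 0 on each array, while the clones themselves were at 0.71 or more. With this local median subtracted, a setting chosen after seeing the data, the mean log2 ratio was 1.20 for S0354 and 1.12 for N1195.

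The ratios of both clones were positive under each way of normalising that was tried, provided that the first channel was Cy5. The mean log2 ratio ran from 1.08 to 1.501 for S0354 and from 0.96 to 1.36 for N1195 over 14 alternatives. Besides the normalisation, these include leaving out each array, a dye term and the local median. The lowest values of both clones came from leaving out sector 3. The highest values came from arrays left unnormalised, where the SD over the arrays was 1.08 for S0354 and 1.21 for N1195 and neither clone met the limits for a call. With the spline drawn through GenBank-derived probes alone the means were 1.497 for S0354 and 1.32 for N1195, while the median of all probes moved to 0.13. In that setting 411 probes were called higher and 106 lower, against 218 higher and 164 lower with all probes. Over the same 14 alternatives the mean difference between the clones, S0354 minus N1195, stayed between 0.03 and 0.18. The lowest came with the blank medians subtracted, where the means were 1.31 for S0354 and 1.28 for N1195.

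**Figure D5:**
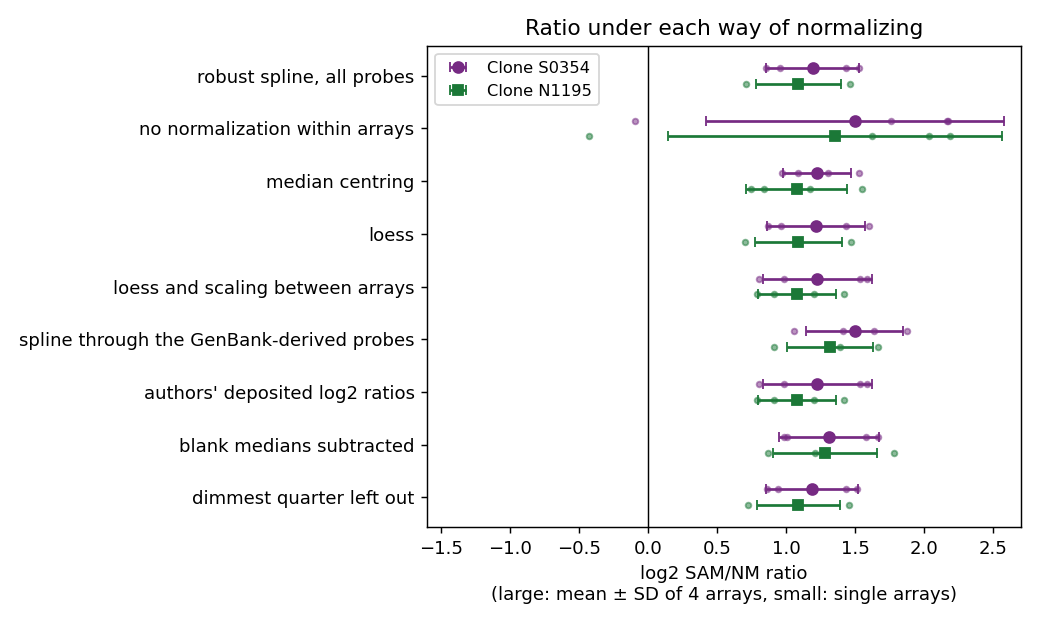
Mean log2 SAM/NM ratio with its SD over 4 arrays for S0354 (circles) and N1195 (squares) under each way of normalising, with small points for single arrays. Only without normalisation do single arrays fall below 0, at -0.09 for S0354 and -0.43 for N1195 on sector 2.

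Other components of RNA silencing were sought in the annotations of the 359 listed transcripts. The word Argonaute occurs in 2 of the 184 transcripts listed as higher and in 0 of the 175 listed as lower. Each of 10 further words, such as Dicer (the enzyme that makes small RNAs), RNA-dependent RNA polymerase, SERRATE, HYPONASTIC and silencing, occurs in 0 of both. The probes outside the lists were searched for none of these words, and the counts do not show whether such transcripts are on the array or differ between the tissues.

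Chromatin proteins that act with small RNAs in plant silencing, or maintain silent chromatin, were taken from a published category of epigenetic regulation. All 6 probes of this list were called higher in the SAM (limma, adjusted p under 0.05 and ratio above 1.3), where 9.76% of all probes were called higher and 7.34% lower. Their median log2 ratio was 0.65, against 0.00 for all probes. The list was selected on these arrays, so its direction is not independent evidence. The DDM1-like transcript EX570366, a chromatin remodelling ATPase, had log2 ratios of 0.91, 0.65, 1.49 and 0.76 on sectors 1 to 4 (mean 0.95 ± 0.37, SD). The SUVH4-like transcript EX569897, a histone H3 lysine methyltransferase, had 1.04, 0.22, 1.17 and 0.39. For both the lowest array was sector 2, as for the Argonaute clones. The cytosine-5 DNA methyltransferase AF034419 had 0.33, 0.48, 0.76 and 0.63, and the chromomethylase EX568764, a plant DNA methyltransferase guided by histone marks, had 0.20, 0.27, 0.85 and 0.52. For these the lowest array was sector 1, as it was for the MSI3-like transcript EX570306, while for MSI1 (DQ026703) it was sector 4. All 6 had their highest value on sector 3, as the Argonaute clones did. The probes for proliferating cell nuclear antigen and DWARF IN LIGHT 1 were also highest there, while AUXIN RESPONSE FACTOR 9 was highest on sector 4. The share of all probes with their highest or lowest value on a given sector was not counted. Whether a shared order of arrays is particular to these transcripts was therefore not tested. The mean log2 ratio of each of the 6 was below that of both Argonaute clones. For the MSI3-like transcript this was narrow, at 1.07 ± 0.50 (SD) against 1.09 for N1195. It had 0.39, 1.04, 1.54 and 1.31 on sectors 1 to 4, above both clones on sectors 2, 3 and 4.

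In the published category that holds N1195, transcription and hormonal regulation, all 7 other members were called higher, beside 9.76% of all probes, with a median log2 ratio of 0.66, against 0.00 for all probes. These too were selected on these arrays. The transcript EX570187, annotated as DWARF IN LIGHT 1, an enzyme that conjugates auxin to amino acids, had log2 ratios of 1.56, 1.24, 1.71 and 1.56 on sectors 1 to 4 (mean 1.52 ± 0.20, SD). The AUXIN RESPONSE FACTOR 9 transcript EX570238, a transcription factor of auxin signalling, had 0.51, 0.41, 0.72 and 0.85 (mean 0.62 ± 0.20, SD). DWARF IN LIGHT 1 thus lay above both Argonaute clones on each array, and the ARF9 transcript below both. The mean log2 ratio of 2 of the 7 members exceeded those of the Argonaute clones. These comparisons are of ratios of different probes and were not tested.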

How the data were processed

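The members and the gene lists were chosen with earlier results of these data known. The authors scanned the sectors and deposited 1 intensity per spot and channel from the CombiMatrix imaging software, not normalized and with no background value. A second deposited table holds log2 ratios, first over second channel. Its values equal a global loess followed by scaling between arrays to within 3.17e-08, and differ by up to 0.162 from the robust spline the methods name with the same scaling. Its medians were between -0.0048 and 0.0069. These log2 ratios were used as an alternative and for pairing clones with accessions. The sample title without a number was taken as sector 1, from its dyes and because the other titles carry 2, 3 and 4. Sectors 1 to 4 are replicates 1 to 4, and both tissues of an array come from 1 collection.

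From the intensities, 6 blanks of 2240 spots were left out and log2 ratios of 2234 probes were normalized within arrays by limma's robust spline (5 degrees of freedom), without background subtraction. Ratios were turned to SAM over NM. A linear model over the 4 arrays, with and without a dye term, was fitted with lmFit and eBayes (limma 3.58.1, R 4.3.3; prior 4.41 degrees of freedom), with Benjamini-Hochberg adjustment over all probes. Summaries were made with Python 3.11.15, pandas 2.3.3 and numpy 2.4.6. The fit was tested on simulated data. Named transcripts were the clones, the 5 probes nearest to each, and 6 of the 13 list members fixed by role. Alternatives covered the normalization, blank subtraction, a filter on the 25% dimmest probes, a dye term, the channel order and leaving out each array.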

Additional observations from a re-analysis of the deposited data

Results flagged for a closer look

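Of 24 sets of 4 array values examined, 2 held an array far from the other 3, where chance is expected to flag about 5% of sets. Neither was an Argonaute clone. Both are probes annotated as proliferating cell nuclear antigen, a DNA replication factor used above as a marker of dividing cells. Y16796 had log2 SAM/NM ratios of 1.60, 1.80, 2.84 and 1.76 on sectors 1 to 4, and the gap of sector 3 to the next array took up 0.841 of the whole range. AB008186 had 1.57, 1.46, 2.92 and 1.67, and the gap of sector 3 took up 0.855 of the range. Sector 3 was also the array with the highest ratio for S0354 and N1195, at 1.53 and 1.47. The part of that array in the values of the clones is shown by leaving it out: without sector 3 the mean log2 ratio was 1.08 for S0354 and 0.96 for N1195.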

How the results depend on the processing

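Of 135 values recomputed under alternatives, 127 kept their direction and call, or moved by less than the spread between arrays. Some of the 127 could not change, since a dye term leaves the mean ratios as they are in this balanced design. The unnormalised ratios of both clones are among the 127, although neither clone then met the limits for a call. Reading the first channel as Cy3 reversed the mean log2 ratio of S0354 (-1.19), that of N1195 (-1.09) and their difference (-0.10), by construction. Counts of called probes moved most with the normalization. Without it 49 were called higher and 31 lower, with median centring 128 were called higher, and with the spline through GenBank-derived probes 411 were called higher and 106 lower; the cause was not tested. With each array left out in turn, S0354 lay between 1.08 and 1.31, N1195 between 0.96 and 1.22, and the counts called ran from 168 to 218 for higher and from 132 to 173 for lower. The dye effect stayed negative and not called for both clones, with adjusted p from 0.0725 to 0.930 for S0354 and from 0.114 to 0.773 for N1195 (limma). Since both tissues of a collection share an array, the ratio itself is the pairing. The number of arrays limits the precision, and no read depth exists for these signals.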
